A study of Mus musculus with 6 samples.

Results

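The genes described here are the glucocorticoid receptor Nr3c1, the glucocorticoid-responsive genes Fkbp5, Tsc22d3, Sgk1, Zbtb16, Cebpd, Klf9 and Errfi1, and the steroid-making enzymes Cyp11a1 and Cyp11b1. They were taken by gene name, as a list drawn up with earlier results of these data known, and every probe that carries one of these 10 names was taken. That gave 11 probes, 2 of them for Nr3c1, out of 55681 non-control probes, of which 29184 could be named with a RefSeq symbol and stood for 21727 genes. Of the 11 probes, 10 probes from 9 genes passed the filter on dim signals, and the Cyp11a1 probe did not.

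The data are RNA levels in jejunal tissue from 6 C57BL/6J mice, all male, read on 6 one-colour Agilent arrays whose probes are 60 bases long. Mice of both groups, 3 in each, received 9 Gy of radiation, and tissue was taken 6 h later. The VND3207 group had been given 100 mg/kg VND3207, a compound known here only by its code name, into the stomach 0.5 h before radiation, and the control group had been given vehicle at the same time. Both groups were irradiated, so every difference below is between irradiated animals, and mice without radiation were not analysed here. All vehicle arrays lay on 1 slide read in 1 scan and all VND3207 arrays on another slide read in another scan, so slide, scan and treatment cannot be told apart in any result. The tissue is whole jejunum, in which fewer cells of a type and less RNA per cell cannot be told apart either.

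Glucocorticoids are steroid hormones that enter the cell and bind the glucocorticoid receptor, a transcription factor held inactive by chaperones until the hormone arrives. The bound receptor moves to the nucleus, sits on paired half-sites in DNA, and turns on genes that include its own brakes, such as the co-chaperone gene Fkbp5. Most glucocorticoid comes from the adrenal cortex, but the intestinal epithelium can also make corticosterone locally, with Cyp11a1 at the first enzymatic step and Cyp11b1 at the last, and this intestinal synthesis is known to depend on the nuclear receptor Nr5a2.

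The promoters of the responsive genes are shown first because receptor binding there is one way in which these genes are controlled. They were taken from RefSeq (GRCm38.p6), and the 250 bases before each start site were searched on both strands for the full glucocorticoid response element (AGAACA, then NNN, then TGTTCT), its half-site AGAACA, the cAMP response element TGACGTCA, the NR5A site CAAGGTCA and the TATA box TATAAA. A full element also counts as half-sites. Among 32851 promoters of that length, the full element occurred in 3 (0.00913%), a half-site in 5284 (16.1%), the cAMP response element in 508 (1.55%), the NR5A site in 438 (1.33%) and the TATA box in 4063 (12.4%). Promoters were found for Fkbp5 (1), Tsc22d3 (3), Sgk1 (6), Klf9 (1), Errfi1 (2) and Cyp11a1 (2), and the table used here held none under the names Zbtb16, Cebpd or Cyp11b1. In the sequences below, written 5′ to 3′ on the strand of the gene and ending at the base before the start site, capitals mark the full element in Sgk1 (the fifth start site, chr10:21993640-21993889, plus strand), a half-site on the opposite strand in Tsc22d3 (the third start site, chrX:140600523-140600772, minus strand) and the cAMP response element in Errfi1 (the second start site, chr4:150854820-150855069, plus strand). Fkbp5 (chr17:28486150-28486399, minus strand) had no match and has no capitals.
Sgk1: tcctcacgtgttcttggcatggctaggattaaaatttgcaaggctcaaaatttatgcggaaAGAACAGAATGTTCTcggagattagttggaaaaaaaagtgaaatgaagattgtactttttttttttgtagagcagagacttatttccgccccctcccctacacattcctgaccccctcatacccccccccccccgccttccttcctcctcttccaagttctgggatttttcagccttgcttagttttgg
Tsc22d3: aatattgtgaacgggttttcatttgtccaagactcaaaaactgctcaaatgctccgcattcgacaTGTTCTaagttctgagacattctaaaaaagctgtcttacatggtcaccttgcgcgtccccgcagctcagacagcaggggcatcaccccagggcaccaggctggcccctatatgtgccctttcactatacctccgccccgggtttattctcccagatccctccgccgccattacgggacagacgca
Errfi1: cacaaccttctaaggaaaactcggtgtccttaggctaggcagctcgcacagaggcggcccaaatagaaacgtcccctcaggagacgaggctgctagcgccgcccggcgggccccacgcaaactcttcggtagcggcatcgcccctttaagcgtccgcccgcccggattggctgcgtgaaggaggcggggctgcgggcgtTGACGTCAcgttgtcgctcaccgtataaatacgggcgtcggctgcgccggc
Fkbp5: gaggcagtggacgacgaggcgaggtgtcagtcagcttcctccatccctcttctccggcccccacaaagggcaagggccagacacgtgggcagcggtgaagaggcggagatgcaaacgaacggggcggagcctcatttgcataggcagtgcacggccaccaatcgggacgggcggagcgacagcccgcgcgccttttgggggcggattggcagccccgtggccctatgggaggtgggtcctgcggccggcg

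The full element in Sgk1, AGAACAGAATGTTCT, began 189 bases before the start site, and a separate half-site in the same promoter began 242 bases before it. The other Sgk1 promoters held a half-site 195 bases before the first start site, a half-site 13 bases and a TATA box 28 bases before the fourth, a TATA box 11 bases before the sixth, and NR5A sites 63 and 103 bases before the second and the third. The half-site in Tsc22d3 began 185 bases before its start. In Errfi1 the cAMP response element began 51 bases before the start and was followed by a TATA box at 28 bases. No match was found in the promoters of Klf9 and Cyp11a1. These are matches of letters within a short window, and receptor binding was not measured.

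Values are log2 signals after subtracting each array's 75th percentile, so a value of 0 is a probe at that percentile and a difference of 1 is a doubling. They compare mice for the same probe and do not rank genes against each other. A difference was called when limma's adjusted p, corrected by Benjamini-Hochberg over all 36098 tested probes, was under 0.05. With 3 mice against 3, an exact permutation test of a single probe cannot go below a 2-sided p of 0.1. Of the 10 tested member probes, 1 was called, the Cyp11b1 probe, which was lower with VND3207. Over all tested probes 15.5% were called (5592), made up of 0.925% higher (334) and 14.6% lower (5258). The share of calls that were higher was 5.97% under this scaling, 20.7% after quantile normalization, 22.4% in the deposited value table, 29.1% after removing smooth trends of each array over spot row and column, brightness and the GC content of the probe (the trend correction), and 63.4% after scaling to the median, which moved the median difference of all probes from -0.06 to 0.23.

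The receptor gene Nr3c1 was measured by a pair of probes, and neither passed the test. The first (A_52_P254174, mm9 chromosome 18, 39574183 to 39574242, minus strand) read 0.13, 0.50 and 0.28 in the vehicle mice and 0.10, 0.49 and 0.62 in the VND3207 mice. The second (A_55_P1967885, chromosome 18, 39571641 to 39571700, minus strand) read 4.52, 4.36 and 4.61 with vehicle and 4.48, 4.61 and 4.60 with VND3207. The groups overlapped on both probes, with a VND3207 mouse lowest on the first and a vehicle mouse lowest on the second. Mean differences were 0.10 ± 0.17 (moderated SE, n = 3 per group, 95% interval -0.33 to 0.53, limma adjusted p = 0.776) and 0.07 ± 0.11 (-0.20 to 0.33, limma adjusted p = 0.757). The narrower interval, that of the second probe, does not show that the receptor gene was equal in the groups. Both probes turned to differences just below 0 when 1 library was left out, the first without VND3207 replicate 3 (-0.008) and the second without vehicle replicate 2 (-0.000206), and the first was -0.11 after the trend correction.

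**Figure D1:**
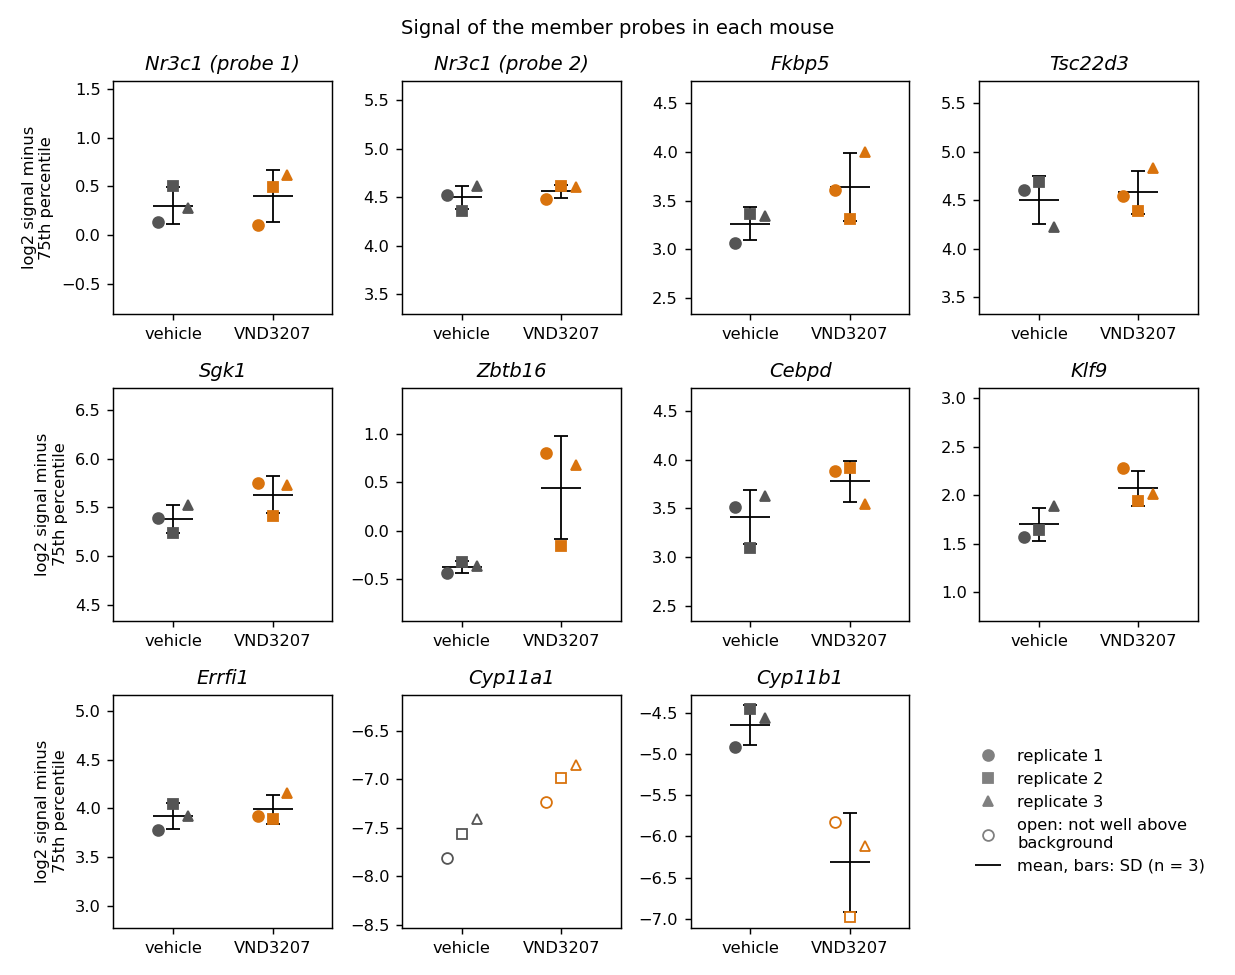
Log2 signal minus the array's 75th percentile (y axis) of each probe in each mouse, by group (x axis), each panel with its own y range. Points are mice, open points are signals not well above background, and bars are the mean and SD of 3 mice, left out for Cyp11a1. Zbtb16 and Klf9 have all VND3207 mice above all vehicle mice, Cyp11b1 has all VND3207 mice below, and Cyp11a1 is open on every array.

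Fkbp5, which encodes a co-chaperone that lowers the receptor's affinity for hormone, was measured on chromosome 17 (mm9, 28536060 to 28536119, minus strand). Its signal was 3.06, 3.36 and 3.34 in the vehicle mice and 3.61, 3.31 and 4.0 in the VND3207 mice. VND3207 replicates 1 and 3 were above every vehicle mouse, while VND3207 replicate 2 lay within the vehicle range. The group means were 3.26 ± 0.17 and 3.64 ± 0.35 (SD, n = 3), a difference of 0.39 ± 0.20 (95% interval -0.10 to 0.87, 1.31-fold, limma adjusted p = 0.29) that did not pass the test. Without VND3207 replicate 3 the difference was 0.20, with a limma adjusted p of 0.489.

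Tsc22d3, which encodes the glucocorticoid-induced leucine zipper, an anti-inflammatory protein, lay at X 137074094 to 137074153 (minus strand). It read 4.60, 4.69 and 4.22 with vehicle and 4.54, 4.39 and 4.83 with VND3207. The groups overlapped across most of their range, and the difference of 0.08 ± 0.18 (95% interval -0.35 to 0.52, limma adjusted p = 0.823) was smaller than the SD of either group, 0.25 and 0.22. Its sign turned when vehicle replicate 3 (-0.06) or VND3207 replicate 3 (-0.04) was left out.

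Sgk1, a kinase that promotes sodium uptake by epithelia, was read by a probe at chromosome 10, 21719507 to 21719566 (mm9, plus strand). Its signal was 5.39, 5.24 and 5.52 in vehicle mice and 5.75, 5.41 and 5.73 in VND3207 mice. As with Fkbp5, VND3207 replicates 1 and 3 exceeded all vehicle mice and replicate 2 did not. The difference of 0.25 ± 0.14 (95% interval -0.09 to 0.59, 1.19-fold, limma adjusted p = 0.33) did not pass the test.

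Zbtb16, a zinc finger transcription factor known as a glucocorticoid-induced gene, had the largest positive difference of the tested member probes. The probe lies at chromosome 9, 48462419 to 48462478 (mm9, minus strand), and read -0.43, -0.32 and -0.36 in vehicle mice and 0.80, -0.16 and 0.68 in VND3207 mice. All VND3207 mice were above all vehicle mice, but replicate 2 by little, and the SD was 0.06 among vehicle mice and 0.53 among VND3207 mice. The difference of 0.81 ± 0.26 (95% interval 0.17 to 1.44, 1.75-fold) had an unadjusted limma p of 0.0207 and an adjusted p of 0.101, which did not pass the threshold. Without VND3207 replicate 2 it was 1.11 and passed (limma adjusted p = 0.0101). Without replicate 1 it was 0.63 (limma adjusted p = 0.249) and without replicate 3 it was 0.69 (limma adjusted p = 0.208).

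Cebpd, a transcription factor of the C/EBP family induced in stress and inflammation, was read at chromosome 16, 15888459 to 15888518 (mm9, plus strand). Its values were 3.51, 3.09 and 3.63 with vehicle and 3.88, 3.92 and 3.54 with VND3207. Here replicate 3 was the VND3207 mouse that fell within the vehicle range, unlike in Fkbp5, Sgk1 and Zbtb16, where replicate 2 was the lowest. The difference of 0.37 ± 0.19 (95% interval -0.08 to 0.82, 1.29-fold, limma adjusted p = 0.278) did not pass the test, and it was 0.21 without vehicle replicate 2.

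Klf9, a zinc finger factor that responds to glucocorticoid and thyroid hormones, gave the other probe with all VND3207 mice above all vehicle mice. The probe at chromosome 19, 23240410 to 23240469 (mm9, plus strand), read 1.57, 1.64 and 1.89 with vehicle and 2.28, 1.94 and 2.01 with VND3207. The gap between the groups was narrow, from 1.89 to 1.94. The difference of 0.37 ± 0.14 (95% interval 0.02 to 0.72, 1.29-fold) had an unadjusted limma p of 0.0414 and an adjusted p of 0.162, and did not pass.

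Errfi1, a feedback inhibitor of the epidermal growth factor receptor, was read at chromosome 4, 150242886 to 150242945 (mm9, plus strand). Its signal was 3.78, 4.04 and 3.92 with vehicle and 3.92, 3.89 and 4.16 with VND3207. The groups overlapped, and the difference of 0.07 ± 0.13 (95% interval -0.23 to 0.38, limma adjusted p = 0.772) did not pass. It was -0.27 (limma adjusted p = 0.164) after the trend correction, and -0.01 without VND3207 replicate 3.

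**Figure D2:**
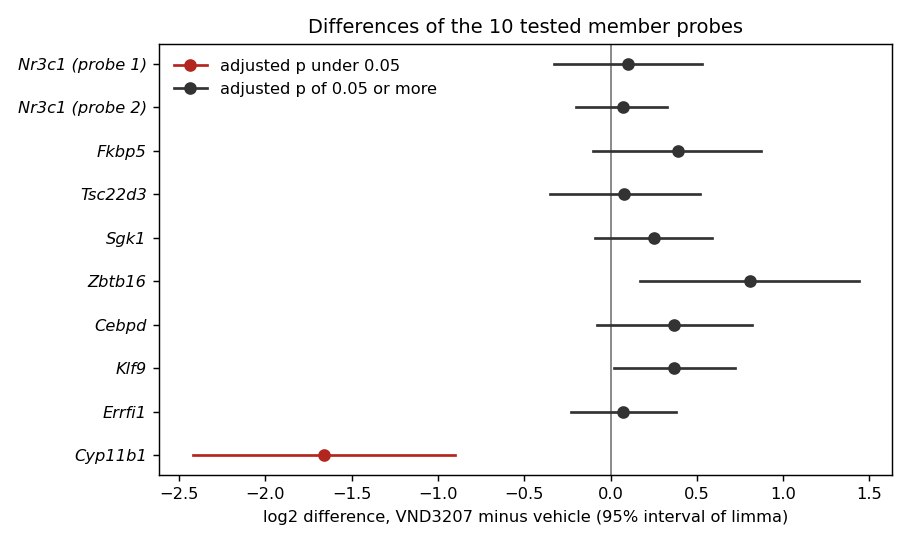
Difference in log2 signal, VND3207 minus vehicle (x axis), for each tested member probe (y axis), with its 95% interval from limma. The intervals of Zbtb16 (0.17 to 1.44) and Klf9 (0.02 to 0.72) lie above 0 and that of Cyp11b1 (-2.42 to -0.90) below 0, and the other intervals include 0.

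Seen side by side, 9 of the 10 tested member probes had a difference above 0, while 41.9% of all tested probes did. So did 52.6% of the 13141 tested probes brighter than the 75th percentile, the class to which the 9 belong. That class was set by the mean over the arrays of both groups. Zbtb16 had a vehicle mean of -0.37, below the percentile, and entered through its VND3207 mean of 0.44. For Zbtb16 the class therefore depends on the same values as the difference, and a class set on vehicle mice alone was not tested. The median difference of the 9 was 0.25, that of all bright probes 0.01, and that of all 10 member probes 0.17 against -0.06 over all tested probes. Groups did not overlap, with all VND3207 mice above, for 2 of the 10 (Zbtb16 and Klf9), and for 9.4% of all tested probes, and with all VND3207 mice below for 1 of the 10 (Cyp11b1), and for 24.8% of all tested probes. An unadjusted limma p under 0.05 was reached by 3 of the 10 (Zbtb16, Klf9 and Cyp11b1) and by 27.2% of all tested probes, split for the members into 2 higher and 1 lower and for all probes into 4.93% higher and 22.2% lower. These counts describe the chosen genes and are no test of them as a set.

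The member probes differed between mice of the same group as well. VND3207 replicate 3 had the highest of the 6 signals on 4 of the 10 probes, VND3207 replicate 1 on 3, VND3207 replicate 2 on 2 and vehicle replicate 2 on 1. The median deviation of the 10 probes from their own means was 0.22 in VND3207 replicate 3, 0.08 in replicate 1 and -0.08 in replicate 2, and -0.14, -0.13 and -0.01 in vehicle replicates 1 to 3. On these deviations VND3207 replicate 2 fell among the vehicle mice. They are not set against all tested probes, whose median deviations were 0.05, 0.06 and 0.03 in vehicle replicates 1 to 3. In VND3207 replicates 1 to 3 those of all tested probes were -0.07, -0.05 and -0.02. Without VND3207 replicate 3, the median member difference was 0.12 and 6 of 10 probes were above 0, as were 6 of 10 after the trend correction (median 0.10).

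Across the 6 arrays, which share the treatment split, the most similar member pairs were Zbtb16 and Sgk1 (Pearson r = 0.88), Fkbp5 and Errfi1 (0.85), Fkbp5 and Zbtb16 (0.85), Sgk1 and Klf9 (0.85) and Zbtb16 and Klf9 (0.84). The pair of Nr3c1 probes had an r of 0.12. Among 22098 other named probes, those whose values followed Fkbp5 most closely over the 6 arrays were Hcls1 (Pearson r = 0.994), Ifi208 (0.99), Gata3 (0.983), Gclc (0.983) and Pex13 (0.979). Their differences between the groups were 0.24, 0.18, 0.30, 0.10 and 0.14, and none passed the test (limma adjusted p from 0.325 to 0.605). These are descriptions over 6 arrays, taken from the top of a very long list.

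The enzymes gave much weaker signals. Cyp11a1, which makes pregnenolone from cholesterol, was read by a probe annotated to chromosome 9, 57874074 to 57874544 (mm9, plus strand). It was not well above background on any array, and the scanner software had put a placeholder in place of its signal on all 6. The values of -7.81, -7.56 and -7.41 with vehicle and -7.23, -6.99 and -6.85 with VND3207 therefore have no order, and the probe was not tested.

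Cyp11b1, the enzyme of the last step of corticosterone synthesis, was lower with VND3207. Its probe (A_55_P2156963, chromosome 15, 74665330 to 74665389, mm9, minus strand) read -4.92, -4.46 and -4.57 in vehicle mice and -5.83, -6.98 and -6.11 in VND3207 mice. All VND3207 mice were below all vehicle mice, and the probe was well above background in 3 of 3 vehicle mice and 0 of 3 VND3207 mice. On the linear scale the processed signals were 28.9, 31.3 and 35.5 with vehicle and 13.5, 5.4 and 10 with VND3207, where 5.4 is a placeholder set by the scanner software.

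The fitted Cyp11b1 difference was -1.66 ± 0.31 (95% interval -2.42 to -0.90, limma adjusted p = 0.0172), from group means of -4.65 ± 0.24 and -6.31 ± 0.60 (SD, n = 3). Since no VND3207 mouse had a signal well above background, the fold is only a bound. Set against the lowest signal that counted as well above background on those arrays, Cyp11b1 was at least 1.17-fold lower. Of the 2437 tested probes with the same detection pattern, 1664 (68.3%) were also called lower, so the call is common among such dim probes. The share of spots well above background was 66.7% to 70.0% with vehicle and 58.8% to 61.4% with VND3207. The lowest signal that counted as such was -5.48 to -5.29 on vehicle arrays and -5.13 to -4.71 on VND3207 arrays. The Cyp11b1 value of vehicle replicate 1, -4.92, lay below the lowest such signals of VND3207 replicates 2 and 3 (-4.77 and -4.71). The part of these array differences in the Cyp11b1 result was not tested.

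The Cyp11b1 call depended on the processing. It was lost after quantile normalization (-1.22, limma adjusted p = 0.0701), in the deposited value table (-1.21, 0.0748), with normexp background correction (-0.16, 0.413) and after the trend correction (-1.08, 0.0535). It was also lost without vehicle replicate 2 (-1.57, 0.0726) or without vehicle replicate 3 (-1.62, 0.0636). The direction was the same in each of the 16 alternative fits that tested it, 9 of which kept the call, with limma adjusted p from 0.0146 to 0.413.

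**Figure D3:**
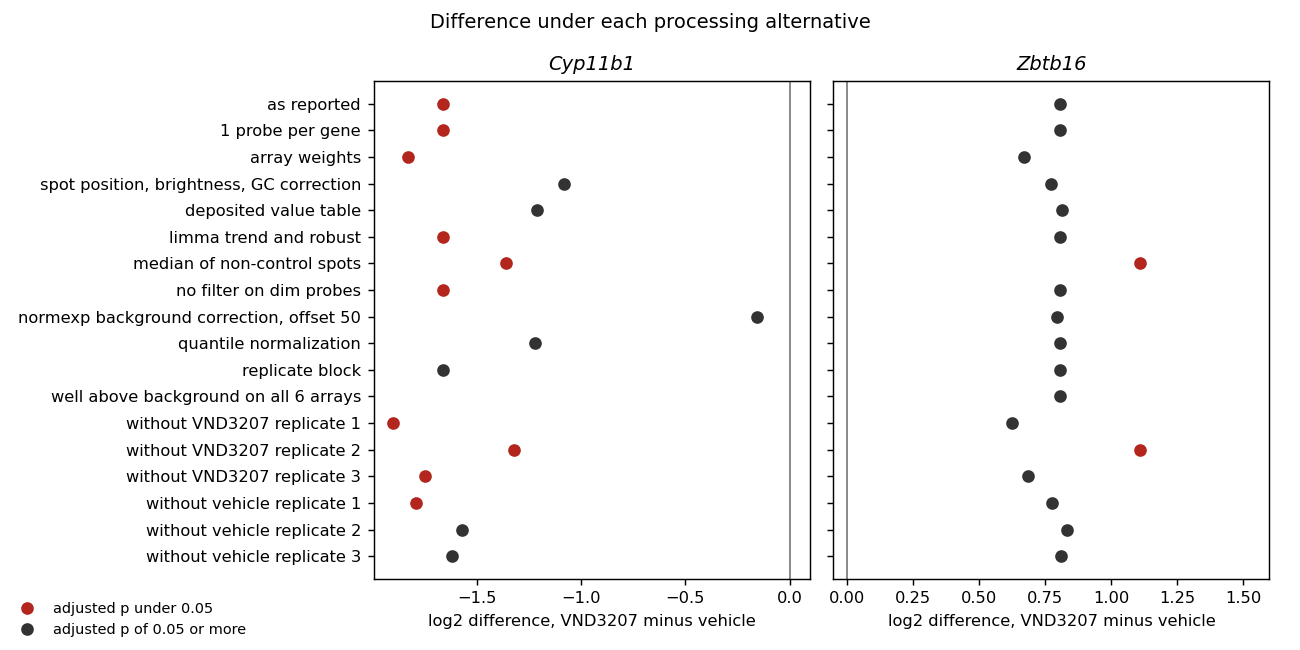
Difference in log2 signal, VND3207 minus vehicle (x axis), of Cyp11b1 and Zbtb16 under each processing alternative (y axis), with red points for a limma adjusted p under 0.05. Cyp11b1 ranges from -1.90 to -0.16 and is called in 9 of 16 alternatives, and Zbtb16 ranges from 0.63 to 1.11 and is called in 2 of 17.

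Further genes of the pathway were read from 4 lists chosen by function, and 8 of their 87 tested probes were called (9.2%), against 15.5% of all tested probes. The shares are not matched for brightness, since 56 of the 87 were brighter than the 75th percentile, against 13141 of all 36098. Of those 13141 bright probes 87 were called higher and 600 lower. Of the 22957 dimmer ones 247 were called higher and 4658 lower. Of 28 probes for 22 other glucocorticoid response genes, 2 were called higher and 1 lower, and 15 had a difference above 0, with a median of 0.02. Of these 28, 16 were brighter than the 75th percentile. Over all tested probes 0.925% were called higher, 14.6% were called lower and 41.9% were above 0, with a median of -0.06. Dusp1, a phosphatase that switches off MAP kinases, rose by 0.51 ± 0.11 (limma adjusted p = 0.0248), from -0.64, -0.70 and -0.78 with vehicle to -0.13, -0.13 and -0.33 with VND3207. The VND3207 mice were all above the vehicle mice. That call was lost in 7 of 17 alternatives, and after the trend correction the difference was 0.22 (limma adjusted p = 0.424).

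Rgs2, a brake on G protein signalling, disagreed between its probes. One read -3.66, -3.91 and -3.61 with vehicle and -3.12, -3.10 and -3.08 with VND3207, a difference of 0.63 ± 0.11 (limma adjusted p = 0.0153), and the brighter one differed by -0.03 (limma adjusted p = 0.91). The call was lost in 3 of 16 alternatives, among them without VND3207 replicate 1 (limma adjusted p = 0.0512) or replicate 2 (0.0554). Hif3a, a member of the hypoxia-inducible factor family, disagreed too. On one of its 3 probes the signal went from -1.96, -1.68 and -2.18 with vehicle to -5.86, -5.21 and -5.12 with VND3207, where no mouse was well above background, so that this probe was at least 7.64-fold lower (limma adjusted p = 0.00136). Its detection pattern was that of the Cyp11b1 probe, with which 68.3% of tested probes were called lower. The other 2 Hif3a probes differed by 0.37 and -0.07 (limma adjusted p = 0.421 and 0.892).

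The largest difference in this list that did not pass was that of Rasd1, a small GTPase named for its induction by dexamethasone (0.95 ± 0.42, limma adjusted p = 0.214). In the other direction Tat, a liver enzyme of tyrosine breakdown named here after its values were seen, differed by -0.94 ± 0.40 (limma adjusted p = 0.197). Rasd1 read -3.19, -3.50 and -3.53 with vehicle and -2.48, -1.58 and -3.30 with VND3207. Here VND3207 replicate 2 was the highest of the 6 mice, whereas it was the lowest VND3207 mouse for Zbtb16 and Fkbp5.

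Of the 29 probes for 14 genes of the receptor machinery, the chaperones and cofactors that hold or serve the receptor, 0 were called higher and 1 lower, with 13 above 0 and a median of -0.03. Over all tested probes 0.925% were called higher, 14.6% were called lower and 41.9% were above 0, with a median of -0.06. In this list 23 of the 29 were brighter than the 75th percentile. Of all 13141 such bright probes, 87 were called higher, 600 were called lower and 52.6% were above 0. The called probe belonged to Hspa8, a constitutive chaperone, and fell by 1.00 ± 0.11 on the log2 scale (limma adjusted p = 0.0033). The other 2 Hspa8 probes differed by -0.34 and -0.14 and did not pass (limma adjusted p = 0.103 and 0.504). The mineralocorticoid receptor Nr3c2, which also binds corticosterone, differed by -0.36 (limma adjusted p = 0.326). The coactivator Ncoa1 differed by 0.31, 0.24 and 0.02 on its probes (limma adjusted p = 0.138, 0.357 and 0.957). The probes of the coactivator Ncoa3 disagreed in sign, with -0.28 on the dimmer one (limma adjusted p = 0.24) and 0.15 on the brighter one (0.485).

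The steroid synthesis and inactivation list held 28 probes for 22 genes, of which 23 probes for 18 genes were bright enough to test. None was called higher and 3 were called lower, which is 13.0%, near the 14.6% called lower over all tested probes. A difference above 0 was found for 6 of 23 probes, against 41.9% of all tested probes. The median was -0.24, against -0.06 for all tested probes, 0.01 for those brighter than the 75th percentile (12 of the 23 list probes) and -0.16 for those dimmer. Star, which brings cholesterol into the mitochondrion, was called lower on both of its probes. One differed by -0.83 ± 0.19 (limma adjusted p = 0.0342), and the other was well above background in 0 of 3 VND3207 mice and at least 2.23-fold lower (limma adjusted p = 0.0246). The latter probe passed the filter on its vehicle mice alone, and 68.3% of tested probes with that detection pattern were called lower. It differed by -0.36 with normexp (limma adjusted p = 0.17) and by -0.75 after the trend correction (0.106). The Star calls were lost in 12 of 17 and 9 of 15 alternatives.

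Nr5a1, a nuclear receptor that drives steroid enzyme genes in the adrenal gland and gonads, fell by 0.87 ± 0.12 on the log2 scale (limma adjusted p = 0.00596). It read -0.81, -0.74 and -0.98 with vehicle and -1.85, -1.62 and -1.67 with VND3207, with no overlap, and was called in all 17 alternatives (difference -0.94 to -0.57). Its relative Nr5a2, linked above to intestinal steroid synthesis, had differences of 0.11 and -0.25 on its probes and passed on neither (limma adjusted p = 0.655 and 0.274). Cyp17a1, an enzyme of androgen and cortisol synthesis, differed by -0.99 ± 0.26 (limma adjusted p = 0.056). Cyp19a1, the enzyme that makes estrogens, was well above background in 0 of 3 VND3207 mice. The groups overlapped, with a VND3207 mouse (-4.8) above a vehicle mouse (-5.06). The fitted difference of -0.8 (limma interval -1.84 to 0.24) did not pass (limma adjusted p = 0.304). It was -0.02 with normexp, so no minimum fold is given. Hsd11b1, which regenerates active glucocorticoid, differed by 0.36 ± 0.20 (limma adjusted p = 0.318). Nr5a2 and Hsd11b1 were named for their roles after their values were seen.

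Genes of steroid-regulated sodium transport were described singly. The sodium channel subunits Scnn1b and Scnn1g, which Sgk1 is known to stimulate, were not well above background on any array. Scnn1a, another subunit of that channel, was well above background in 3 of 3 mice of each group. It differed by 0.05 (limma adjusted p = 0.887). These subunits lie outside the rule for named genes given below. The pump subunit Atp1b1 differed by -0.10 (limma adjusted p = 0.625), the brush border sodium exchanger Slc9a3 by -0.41 on one probe (limma adjusted p = 0.313) and -0.11 on the other, and the ubiquitin ligase Nedd4l by -0.03 and 0.10. Of 5 enterocyte markers 4 were called lower, with the values given next, and their part in the Cyp11b1 result was not tested.

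**Figure D4:**
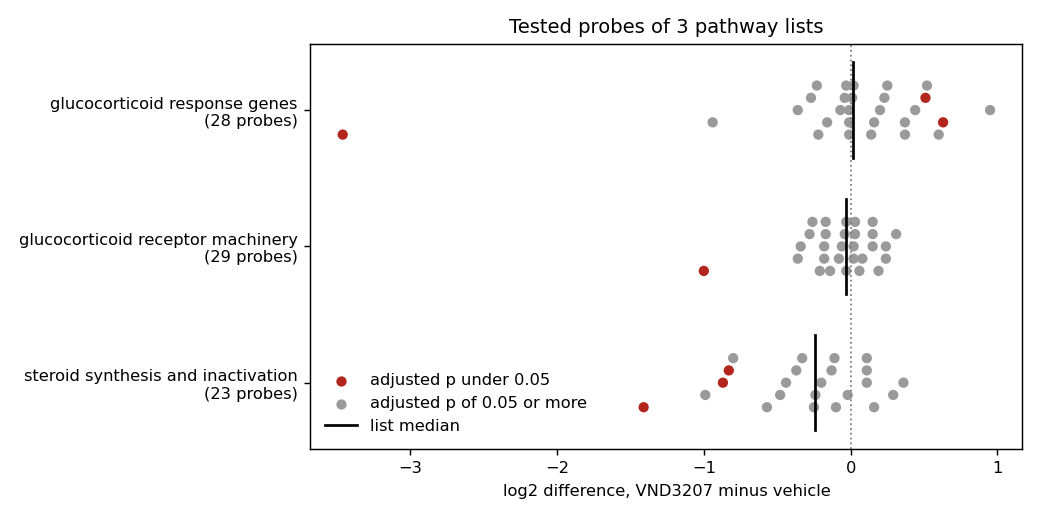
Difference in log2 signal, VND3207 minus vehicle (x axis), of each tested probe of 3 pathway lists (y axis), with a bar at each list's median. Red points passed the test, with 2 above 0 (Dusp1 and Rgs2) and 5 below 0, the lowest of them the Hif3a probe at -3.46.

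Markers of cell types that whole jejunum can hold were summed per array on the linear scale, relative to the 75th percentile. The tissue label matched its enterocyte markers, of which 5 of 5 were detected. Their sums were 1670 to 1970 in vehicle mice and 1170 to 1300 in VND3207 mice. Of the 5, 4 were called lower: Anpep (limma adjusted p = 0.0114), Fabp2 (0.0233), Vil1 (0.0488) and Lct (0.0498), the last 2 narrowly. Alpi did not pass (0.742). Of all tested probes 14.6% were called lower, and 600 of the 13141 brighter than the 75th percentile. How these calls held under the processing alternatives is not given here. Adrenal cortex markers were detected for 4 of 6 genes, namely Star, Nr5a1, Akr1b7 and Cyp21a1 (on the brighter of its probes). The sums of this list were 40.9 to 57.0 with vehicle and 31.8 to 55.7 with VND3207. They were made almost wholly of Akr1b7 (39.9 to 56.1 and 31.1 to 54.9). The remaining markers, Cyp11b2 and Mc2r, were not well above background on any array. Star and Nr5a1 are those described above. T cell sums were 7.89 to 9.42 and 8.30 to 11.8, macrophage sums 14.2 to 19.1 and 15.1 to 22.4, stroma sums 36.3 to 55.8 and 33.9 to 55.5, and pancreas sums 1.05 to 2.06 and 0.794 to 0.933, where Cpa1 (limma adjusted p = 0.0471, well above background in 0 of 3 VND3207 mice) and Cel (limma adjusted p = 0.0379) fell. Adipocyte sums ranged from 0.598 to 16.6 with vehicle and from 0.960 to 68.5 with VND3207, the highest in VND3207 replicate 1. Smooth muscle sums were 159 to 199 with vehicle and 184 to 196 in VND3207 replicates 1 and 2, but 46.9 in VND3207 replicate 3. The part of these cell types in the differences of the member genes was not tested. Values without replicates 1 and 3 are given above for Zbtb16, and without replicate 3 for Fkbp5, which was 0.40 (limma adjusted p = 0.429) without replicate 1.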

How the data were processed

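The authors scanned the arrays with Agilent Feature Extraction 10.7.1.1 (file headers, submitters' processing notes). The deposited intensity used here, per the file headers, is the processed Cy3 signal after background subtraction and detrending. The deposited value table holds log2 values with the same column median (6.05) on each array; how it was made is not given in the sources used here. All columns matched a sample (0 did not).

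Control and outlier spots were left out, spots of a probe were averaged, log2 was taken and each array was set relative to the 75th percentile over its 59305 non-control spots. Probes well above background on at least 3 of 6 arrays were kept (36098) and fitted by group with limma 3.58.1 (lmFit, eBayes) in R 4.3.3, adjusted over all of them. Each array is 1 mouse, and the p-values rest on the spread between mice. Named genes were all members, list genes past the threshold or with up to 4 of the largest differences in a list, and the 5 nearest to Fkbp5. Members and lists were chosen with earlier results of these data known. One list result is not reported here. The steps were tested on simulated data. The number of arrays limits the precision.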

Additional observations from a re-analysis of the deposited data

How the results depend on the processing

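The count of called member probes was 1 as reported. It was 0 after quantile normalization, normexp correction, the trend correction (spot row and column, brightness and GC content, mgcv 1.9.3), the replicate block, the filter on all 6 arrays (where Cyp11b1 was not tested) and in the deposited table. After scaling to the median it was 7, with Fkbp5, Sgk1, Zbtb16, Cebpd, Klf9 and the second Nr3c1 probe higher and Cyp11b1 lower. Under that scaling 6625 of all 36098 tested probes were called higher and 3825 lower. The count was 3 at an unadjusted limma p under 0.05, which 27.2% of all tested probes reached. With 1 array left out it was 0 to 2 (0 without vehicle replicate 2 or 3, 2 without VND3207 replicate 2). After scaling to the median the member median was 0.47, with all probes at 0.23. The count of called list probes was 8 as reported, 5 with 1 probe per gene, 4 with the replicate block, 18 after scaling to the median and 4 to 9 with 1 array left out, and between 6 and 10 otherwise.

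Among member probes, signs turned for 4. After the trend correction Errfi1 was -0.27, the first Nr3c1 probe -0.11 and Tsc22d3 -0.035. The second Nr3c1 probe was -0.0087 with normexp and Tsc22d3 -0.0013 with array weights. With 1 array left out, Errfi1 ranged from -0.0133 to 0.14, the first Nr3c1 probe from -0.008 to 0.25, the second from -0.000206 to 0.12 and Tsc22d3 from -0.0613 to 0.18. Their cause was not tested.

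Replicate numbers did not pair the samples: same-numbered samples had deviations correlated at 0.13, -0.11 and -0.05. With the replicate block Cyp11b1 was -1.66 (limma adjusted p = 0.0704). Over all tested probes the calls were 334 higher and 5258 lower as reported, and 852 and 3257 after quantile normalization, 6625 and 3825 after median scaling, 337 and 2832 with normexp, 919 and 3176 in the deposited table, 662 and 5511 with no filter, 283 and 2921 with the filter on all 6 arrays, 1097 and 2675 after the trend correction, and 143 and 3410 with the replicate block. Signals near background limit Cyp11a1 and Cyp11b1.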
